A study of Mus musculus with 12 samples.

Results

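Transferrin (Trf) and 8 other genes of cellular iron handling were followed in RNA from the pancreatic islets of Wfs1-mutant mice. The genes were taken by name from a table of 24078 entries, in which each of the 9 had a single entry. They were grouped around Trf because its level differed in Wfs1KO islets, so the Trf values of Wfs1KO animals are given as a description without a test. The 9 genes are Trf, the transferrin receptor gene Tfrc, the reductase gene Steap3, the importer gene Slc11a2, the ferritin genes Fth1 and Ftl1, the exporter gene Slc40a1, and Aco1 and Ireb2, which encode the iron regulatory proteins. The islets came from 4 wild-type (WT), 4 Wfs1 heterozygous (Wfs1HZ) and 4 Wfs1 homozygous (Wfs1KO) animals of the Wfs1tm1Koks line. Every animal was a male F2 hybrid of 129S6/SvEvTac and C57BL/6, 5 to 6 months old. In the mutant allele a LacZ cassette replaces most of the last exon of Wfs1, in every tissue of the animal, and a truncated WFS1 fused to the LacZ product is still made, so the 5′ part of the transcript can be read in Wfs1KO islets. Islets of all 3 genotypes were freed with collagenase, picked by hand and kept overnight in high-glucose medium with fetal bovine serum before RNA was taken.

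Most cells take up iron bound to transferrin, a serum protein made mainly by the liver, through the transferrin receptor. In the endosome the iron is released, reduced by STEAP3 and carried into the cytosol by DMT1, the product of Slc11a2, after which it is used, stored in ferritin or exported by ferroportin, the product of Slc40a1. Iron regulatory proteins IRP1 (Aco1) and IRP2 (Ireb2) bind a hairpin, the iron-responsive element, and thereby stabilize the receptor mRNA or block translation of ferritin and ferroportin mRNAs when iron is scarce. Beta cells depend on iron for mitochondrial respiration and are known to be sensitive to iron excess, and they make hepcidin, the hormone that removes ferroportin from the cell surface. Levels below are mRNA levels, and neither protein nor iron was measured in the table used here.

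The hairpin was searched for in the mature coding transcripts of these genes, since iron acts through it on the receptor, ferritin and ferroportin mRNAs. The rule that took the genes did not use this sequence. They were taken as known iron handling genes, however, so their share of matches is a description and no independent evidence. The search took an unpaired C, a stem of 5 base pairs and the 6-base loop CAGTGN on the sense strand, with G-T pairs allowed in the stem, in the transcripts of GENCODE M21 (GRCm38, the same build as mm10). A match was found in 4 of the 9 genes, against 294 of 21877 coding genes (1.34%). Of the further iron genes described below 66 were searched, and 2 had a match. The matches in the 9 genes are written as DNA, 5′ to 3′ on the strand of the gene, with the loop in capitals.
Tfrc 3′ UTR, site 1: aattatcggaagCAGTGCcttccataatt
Tfrc 3′ UTR, site 2: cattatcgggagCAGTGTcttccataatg
Tfrc 3′ UTR, site 3: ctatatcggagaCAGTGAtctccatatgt
Tfrc 3′ UTR, site 4: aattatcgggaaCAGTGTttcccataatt
Fth1 5′ UTR: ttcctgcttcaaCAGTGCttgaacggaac
Ftl1 5′ UTR: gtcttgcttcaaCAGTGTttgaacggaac
Slc40a1 5′ UTR: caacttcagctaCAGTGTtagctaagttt

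The Tfrc sites lie at chr16:32631219-32631247, chr16:32631598-32631626, chr16:32631663-32631691 and chr16:32631710-32631738 on the plus strand, all in the 3′ UTR. The Fth1 site lies at chr19:9982732-9982760 on the plus strand, the Ftl1 site at chr7:45459779-45459807 on the minus strand and the Slc40a1 site at chr1:45925465-45925493 on the minus strand, each in the 5′ UTR. The matches in the receptor mRNA thus lie behind the coding sequence, whereas the storage and export mRNAs each had a single match in front of it. Tfrc site 2 was found only when a G-T pair was allowed, and without such pairs the same number of these genes (4) and 66 of all coding genes (0.302%) had a match. No match was found in the transcripts of Trf, Steap3, Slc11a2, Aco1 or Ireb2. The search could match only the hairpin form given above, so these genes are not shown to lack other forms. For the same reason the matches in Tfrc and the other matched genes may not be all of their hairpins. A match is a description of the sequence, and binding was not measured.

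Values are RPKM, reads scaled to transcript length and to the total of mapped reads, so that levels of different genes can be set side by side. The total of reads behind the RPKM, inferred from how the lowest levels of short RNAs are spaced, was 2914000 to 8929500 reads in WT, 2189500 to 7352500 in Wfs1HZ and 3290500 to 9585500 in Wfs1KO libraries. These totals are far smaller than the read numbers per sample that the study reports, and the reason was not tested. Every approximate read number here therefore holds only if the inferred totals do. Wfs1 itself had 28.6 ± 3.83 RPKM (SD, n = 4) in WT, 11.1 ± 5.59 in Wfs1HZ and 4.40 ± 1.83 in Wfs1KO islets, and all mutant animals lay below all WT animals, as their labels say. The most abundant entry was a hormone gene in 8 libraries (Gcg in 7, Ins2 in 1) and the acinar protease gene Ctrb1 in 4. The glucagon gene Gcg was highest in WT replicate 2 (182240 RPKM), Wfs1HZ replicate 2 (155286) and Wfs1KO replicate 4 (217165), against 50073 to 109573 in the other 9. Each genotype thus had 1 glucagon-rich library. These 3 also had the lowest beta-cell marker sum and the lowest acinar marker sum of their genotype, and Wfs1HZ replicate 2 had the fewest reads and the lowest rank correlation with the other libraries. Acinar markers summed to 7576 to 284049 RPKM, so all libraries held exocrine RNA. In bulk RNA, fewer cells of a type and less RNA per cell cannot be told apart.

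Trf is on chromosome 9 (chr9:103204001-103230444, minus strand). Its level in the 4 WT animals was 14.78, 9.33, 10.13 and 11.64 RPKM. In Wfs1KO animals it was 6.07, 2.92, 3.29 and 3.51 RPKM. Every Wfs1KO animal lay below every WT animal, with a gap between 6.07 and 9.33 RPKM. The means were 11.5 ± 2.41 RPKM (SD, n = 4) in WT and 3.95 ± 1.44 in Wfs1KO islets, a difference of -1.55 on the log2(RPKM + 0.1) scale or a ratio of 0.341. Among all 21701 transcripts tested, 0.991% lay lower in Wfs1KO without overlap, and nothing is read from that share for Trf because this contrast was used to choose it. The difference was between -1.77 and -1.35 under all 20 other settings and left-out animals. These reuse the animals that chose the gene, so that range is a description and no independent evidence.

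Trf varied most among Wfs1HZ animals. Their values were 13.72, 2.14, 2.91 and 7.33 RPKM, so that replicate 1 lay within the WT range, replicates 2 and 3 lay below the lowest Wfs1KO animal, and replicate 4 lay in the gap between WT and Wfs1KO. The highest Wfs1HZ animal had 6.41 times the level of the lowest, against 1.58 times in WT and 2.08 times in Wfs1KO. The difference from WT, which was not used to choose the genes, was -1.15 on the log2 scale (standard error 0.52, 95% interval -2.32 to 0.02, n = 4 per genotype), and it did not pass (adjusted p = 1 from limma with Benjamini-Hochberg adjustment). By the exact two-sided permutation test over animals, p was 0.143, where 0.029 is the smallest value that 4 against 4 can give. The estimate rested on which Wfs1HZ animals were included: it was -1.63 without replicate 1 and -0.75 without replicate 2. Between Wfs1KO and Wfs1HZ the groups overlapped and the difference was -0.40, with -0.80 without Wfs1HZ replicate 2 and 0.08 without Wfs1HZ replicate 1.

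Approximate reads on Trf were 75.9 to 332.8 per WT library, 12.0 to 186.2 per Wfs1HZ library and 29.7 to 149.6 per Wfs1KO library. Because Trf is a liver gene, hepatocyte markers were read alongside. The 7 markers summed to 78.5 to 167 RPKM in WT and in Wfs1KO islets to 68.6 to 158 RPKM, with medians of 104 and 107, none of them at 0 in all libraries of either genotype. Of the 6 that were tested 3 were higher and 3 lower in Wfs1KO, and none passed. In Wfs1HZ islets the 7 markers summed to 193, 26.3, 121 and 40.4 RPKM in replicates 1 to 4. Replicate 1 was highest and replicate 2 lowest both in this sum and in Trf, but replicates 3 and 4 stood in opposite order. The 6 Schwann cell markers, a list kept because glia also make transferrin, summed to 15.4 to 25.8 RPKM in WT islets and to between 17.4 and 25.3 RPKM in Wfs1KO islets. Summed markers of stromal cells had a median of 31.8 RPKM (range 18.6 to 56.9) in WT and 69.2 (56.6 to 132) in Wfs1KO islets. Those of endothelial cells had 30.6 (19.2 to 49.8) and 55.8 (54.7 to 64.6), without overlap. Medians of endocrine markers differed as well, but their ranges overlapped. The beta-cell sum had a median of 94880 RPKM (32017 to 179836) in WT and 56030 (22340 to 91413) in Wfs1KO islets. The alpha-cell sum had 91411 (59453 to 182265) and 64656 (50084 to 217187), and the PP-cell marker 5073 (2557 to 8388) and 10439 (4231 to 18204). None of these markers that were tested passed. The part of hepatocyte, Schwann cell, stromal, endothelial and endocrine RNA in the Trf values was not tested. Without the glucagon-rich library of each genotype, the Trf difference between Wfs1KO and WT was -1.61, likewise a description of the contrast that chose the gene.

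**Figure D1:**
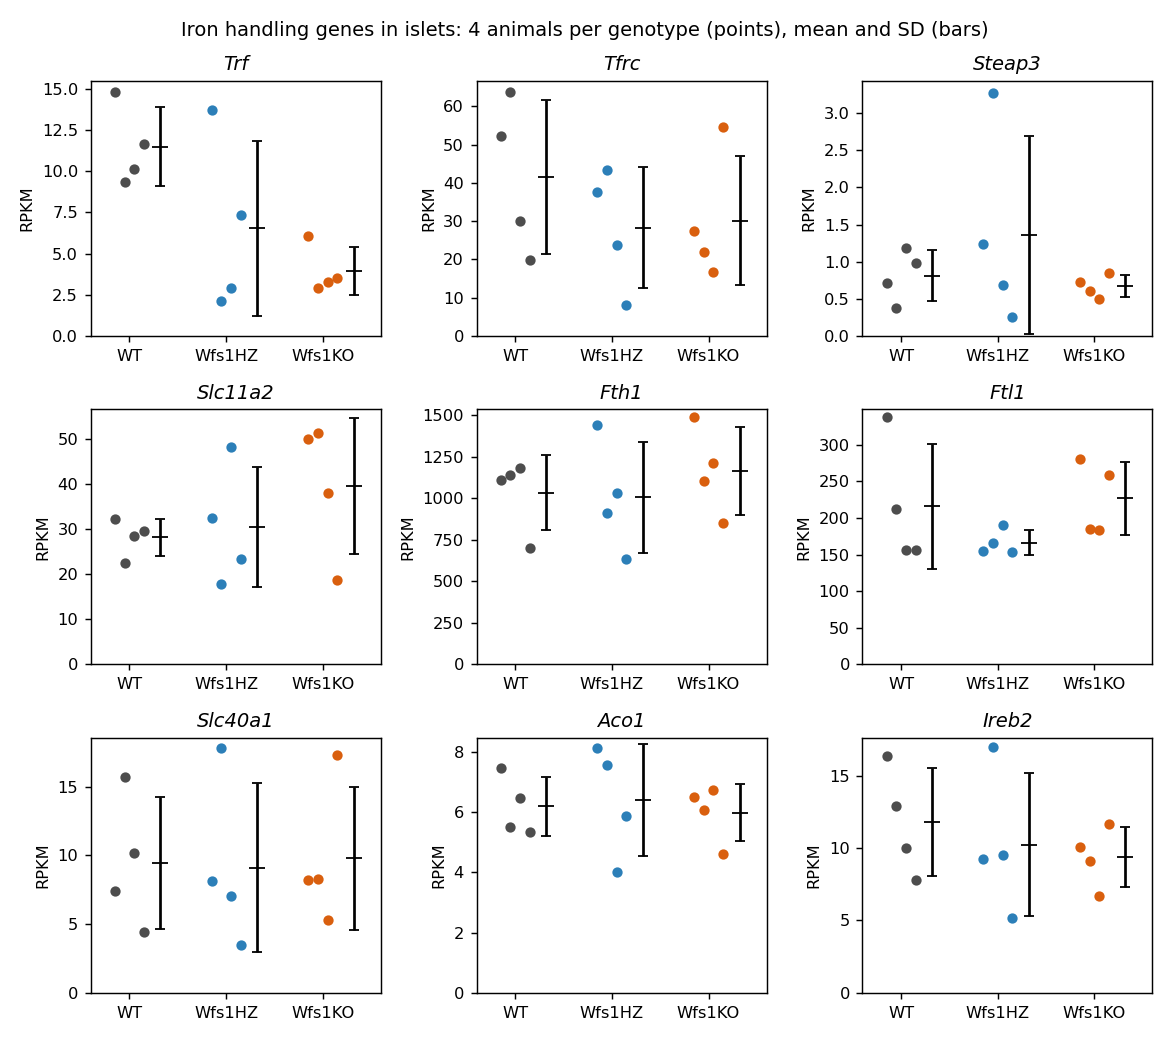
RPKM of the 9 iron handling genes (y axes, from 0) in WT, Wfs1HZ and Wfs1KO islets, with a point for each animal and a bar for the mean and SD of 4 animals. Trf of Wfs1KO animals (2.92 to 6.07 RPKM) lies wholly below that of WT animals (9.33 to 14.78 RPKM), while the other 8 genes overlap between genotypes.

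The transcripts whose levels followed Trf most closely were found by Pearson correlation of log2 values over the 12 libraries, among the 13355 that averaged 1 RPKM or more. The 10 highest were Aldoc (r = 0.831), which encodes a glycolytic aldolase, Ang (0.826) and Rnase4 (0.769), which encode secreted ribonucleases and share a locus, and Otub1, Gtf3a, Epb4.1l4b, Mlph, Sccpdh, Copg2 and Man2c1 (0.764 to 0.801). Wfs1 itself stood 15th (rank 15 of 13355) with r = 0.743, or 0.394 once each genotype's mean was removed. Trf was chosen for its level in Wfs1KO islets and Wfs1 is low there by targeting, so this rank is no independent evidence of a link. The lowest were Snord82 (r = -0.947), Olfr769 (-0.912) and Lmbr1l (-0.875), of which Snord82 and Olfr769 rest on few reads. The libraries share genotype, depth and tissue composition, so these are descriptions of 12 points and carry no p. Without Wfs1HZ replicate 2 only 1 of the 10 stayed among the 10 highest. The other iron handling genes did not follow Trf: r was between -0.281 (Slc40a1) and 0.311 (Aco1) for the 7 that averaged 1 RPKM or more.

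The transferrin receptor gene Tfrc (chr16:32608920-32632794, plus strand), with 4 hairpin matches found in its 3′ UTR, had 52.27, 63.85, 30.06 and 19.89 RPKM in WT islets. It had 37.72, 43.50, 23.74 and 8.06 RPKM in Wfs1HZ and 27.54, 21.98, 16.62 and 54.58 RPKM in Wfs1KO islets. The genotypes overlapped fully, and the highest Wfs1KO value came from replicate 4, a glucagon-rich library. The means were 41.5 ± 20.1, 28.3 ± 15.8 and 30.2 ± 16.9 RPKM (SD, n = 4 each). Tfrc differed by -0.46 (standard error 0.45, 95% interval -1.47 to 0.54) on the log2 scale between Wfs1KO and WT, with an adjusted p of 0.934 by limma and an exact permutation p of 0.4. The spread of Tfrc within a genotype, more than 3-fold from lowest to highest animal in each, was larger than any of its differences between genotypes.

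Steap3 (chr1:120190757-120272705, minus strand) encodes the endosomal ferrireductase of the transferrin cycle and was the lowest of the 9 genes. It had 0.71, 0.38, 1.18 and 0.98 RPKM in WT, 1.24, 3.27, 0.68 and 0.25 RPKM in Wfs1HZ and 0.72, 0.61, 0.50 and 0.85 RPKM in Wfs1KO islets. These stand for about 6.5 to 36.9 reads per library, too few to show a small difference. The single high value came from Wfs1HZ replicate 2, and the difference between Wfs1HZ and WT turned from 0.30 with it to -0.26 without it (log2).

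Slc11a2 (chr15:100387898-100425072, minus strand) encodes DMT1, which moves iron out of the endosome. It had 32.24, 22.54, 28.49 and 29.57 RPKM in WT islets. In Wfs1HZ islets it had 32.60, 17.83, 48.27 and 23.39 RPKM, and in Wfs1KO islets 50.10, 51.43, 38.10 and 18.69 RPKM. The first 3 Wfs1KO animals lay above all WT animals and the fourth below them all. The difference between Wfs1KO and WT was 0.40 (standard error 0.31, 95% interval -0.31 to 1.10, exact permutation p = 0.286, limma adjusted p = 0.927). Without Wfs1KO replicate 4 it was 0.72 on the log2 scale, and the adjusted p was 0.37, the lowest over the settings tried. Without the glucagon-rich library of each genotype it was 0.62 (adjusted p = 0.47 from limma).

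Ferritin heavy chain Fth1 (chr19:9980598-9985098, plus strand), the subunit that oxidizes iron for storage, was the highest of the 9 genes, above 99.9% of all transcripts tested. Its level was 1112, 1142, 1181 and 699.5 RPKM in WT, 1440, 914.4, 1032 and 634.9 RPKM in Wfs1HZ and 1492, 1105, 1211 and 852.3 RPKM in Wfs1KO islets. The ranges of the 3 genotypes overlapped. Ferritin light chain Ftl1 (chr7:45457944-45459884, minus strand), which forms the rest of the shell, had 337.7, 212.7, 156.5 and 155.9 RPKM in WT islets. It had 154.8, 165.8, 190.8 and 154.0 RPKM in Wfs1HZ and 279.9, 185.2, 184.2 and 258.8 RPKM in Wfs1KO islets. The Wfs1HZ animals were close together and 3 of them lay below all Wfs1KO animals. That difference, 0.43 on the log2 scale for Wfs1KO minus Wfs1HZ (standard error 0.26, 95% interval -0.15 to 1.00), was within the error (exact permutation p = 0.086, and 1 after adjustment by limma). Between Wfs1KO and WT the log2 difference was 0.17 for Fth1 (95% interval -0.63 to 0.98) and 0.12 for Ftl1 (-0.54 to 0.79). Both ferritin genes have near-identical processed copies in the mouse genome, and how the authors divided such reads is not given in the sources used here, so their levels are uncertain to that extent.

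Slc40a1 (chr1:45908068-45926523, minus strand) encodes ferroportin, the iron exporter. Its values were 7.40, 15.69, 10.18 and 4.45 RPKM in WT, 8.15, 17.79, 7.03 and 3.45 RPKM in Wfs1HZ and 8.18, 8.31, 5.28 and 17.31 RPKM in Wfs1KO islets. Each genotype had a single animal above 15 RPKM, which was its glucagon-rich library, and the means were nearly equal at 9.43 ± 4.78, 9.11 ± 6.13 and 9.77 ± 5.22 RPKM (SD, n = 4 each). The difference between Wfs1KO and WT was 0.06 on the log2 scale (95% interval -0.94 to 1.06).

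Of the 2 regulators, Aco1 was the steadier. Aco1 (chr4:40143081-40198338, plus strand) encodes the cytosolic aconitase that becomes IRP1 when it loses its iron-sulfur cluster. It had 7.46, 5.51, 6.48 and 5.33 RPKM in WT, 8.13, 7.56, 4.01 and 5.88 RPKM in Wfs1HZ and 6.49, 6.07, 6.75 and 4.62 RPKM in Wfs1KO islets, with a range over all 12 of 2.03-fold, the narrowest of the 9 genes. The log2 difference between Wfs1KO and WT was -0.05, with a 95% interval of -0.52 to 0.42. Ireb2 (chr9:54863789-54912530, plus strand) encodes IRP2, which is degraded when iron is plentiful. It had 16.37, 12.93, 9.98 and 7.81 RPKM in WT, 9.24, 17.00, 9.52 and 5.15 RPKM in Wfs1HZ and 10.05, 9.13, 6.69 and 11.65 RPKM in Wfs1KO islets. All 3 ranges overlapped, and the log2 difference of -0.30 between Wfs1KO and WT (95% interval -0.91 to 0.31) was within the spread between animals.

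**Figure D2:**
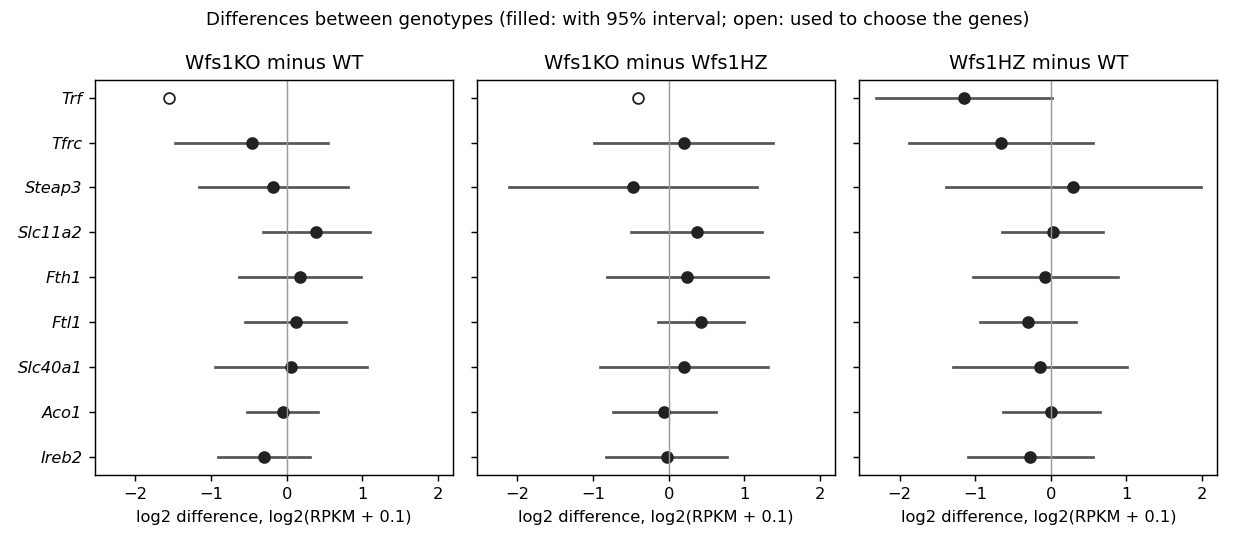
Difference in mean log2(RPKM + 0.1) (x axes) for the 9 iron handling genes (y axis) in the 3 comparisons. Filled points carry the 95% interval from limma, all of which include 0, and open points are Trf in comparisons with Wfs1KO (-1.55 and -0.40), given without an interval because they were used to choose the genes.

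None of the 9 genes had an adjusted p under 0.05 (limma, Benjamini-Hochberg adjustment over 21701 transcripts) in any comparison, Trf in the Wfs1KO comparisons being left aside. For Wfs1KO against WT that threshold was passed by 0.0138% of all transcripts, and for each of the other comparisons by 0%, so the test made few calls anywhere. The targeted gene Wfs1 itself passed only for Wfs1KO against WT (limma adjusted p = 0.04). It did not pass for Wfs1HZ against WT, although every Wfs1HZ animal lay below every WT animal. The study's own test (edgeR) called more genes in both comparisons with Wfs1KO. A gene that did not pass here is therefore not shown to be unchanged. At an unadjusted p under 0.05 the 8 genes other than Trf gave 0 calls for Wfs1KO against WT, beside 5.64% of all transcripts. The 9 genes gave 0 calls for Wfs1HZ against WT, beside 2.35%, and the 8 other than Trf gave 0 for Wfs1KO against Wfs1HZ, beside 2.45%. Of the 8 genes other than Trf, Wfs1KO had higher levels than WT in 4 and lower in 4, with a median log2 difference of 0.00, beside 0.07 over all transcripts tested. For Wfs1KO against Wfs1HZ the median of the 8 was 0.20, beside 0.04. That of all 9, also 0.20, turned to -0.18 without Wfs1HZ replicate 4, beside -0.20 over all transcripts. The median of the 9 turned to -0.12 without Wfs1KO replicate 4, beside -0.04, and to -0.02 with quantile normalization, beside 0.003. For Wfs1HZ against WT the median over the 9 genes was -0.14, beside 0.04, with 3 higher and 6 lower. Without Wfs1HZ replicate 4 it turned to 0.03, beside 0.25 over all transcripts. The unadjusted counts also moved with the setting. Slc11a2 had an unadjusted p under 0.05 for Wfs1KO against WT with sample weights, without Wfs1KO replicate 4 and without the glucagon-rich libraries. Trf had one for Wfs1HZ against WT under 7 of 20 alternatives, joined by Tfrc under 1 of them. The intervals do not show that levels were equal, since for every gene except Aco1 an interval reached 1 or more on the log2 scale in either direction in some comparison. No animals of a genotype lay wholly apart from another in any of the 9 genes but Trf. Over all transcripts 2.74%, 1.43% and 1.66% did so for Wfs1KO against WT, Wfs1KO against Wfs1HZ and Wfs1HZ against WT.

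The order of levels over the 12 libraries was Fth1 (mean 1068 RPKM), Ftl1 (203), Tfrc (33.3), Slc11a2 (32.8), Ireb2 (10.5), Slc40a1 (9.44), Trf (7.31), Aco1 (6.19) and Steap3 (0.948). The ranges of Fth1 and Ftl1, of Ftl1 and Tfrc, of Slc11a2 and Ireb2, and of Aco1 and Steap3 did not touch. Tfrc and Slc11a2 traded places, with Tfrc higher in 6 of 12 libraries (3 of 4 WT, 2 of 4 Wfs1HZ and 1 of 4 Wfs1KO animals). Trf was above Aco1 in 6 of 12 libraries, namely 4 of 4 WT, 2 of 4 Wfs1HZ and 0 of 4 Wfs1KO, which follows from the Trf values that chose the genes. In islets, therefore, the mRNA for ferritin exceeded that for every other gene of the group in each library, and the receptor mRNA exceeded transferrin mRNA in each library as well.

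Ratios within a library do not depend on scaling between libraries. The ratio of Trf to Tfrc, ligand to receptor, was 0.283, 0.146, 0.337 and 0.585 in WT islets. In Wfs1HZ islets it was 0.364, 0.0492, 0.123 and 0.909, and in Wfs1KO islets 0.220, 0.133, 0.198 and 0.0643. Transferrin mRNA stayed below receptor mRNA in all 12 libraries, and both the highest and the lowest ratio came from Wfs1HZ animals. The ratio contains Trf and is no independent evidence of its difference. The ratio of Tfrc to Fth1, uptake to storage, was 0.0255 to 0.0559 in WT, 0.0127 to 0.0476 in Wfs1HZ and 0.0137 to 0.0199 in Wfs1KO islets apart from replicate 4, a glucagon-rich library, at 0.0640. The mean log2 ratio was -4.75 ± 0.55, -5.34 ± 0.78 and -5.39 ± 0.98 (SD, n = 4 each), so the genotypes lay within each other's spread. Fth1 exceeded Ftl1 by 3.29 to 9.30 times, with mean log2 ratios of 2.31 ± 0.50, 2.54 ± 0.49 and 2.36 ± 0.44 in WT, Wfs1HZ and Wfs1KO islets.

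**Figure D3:**
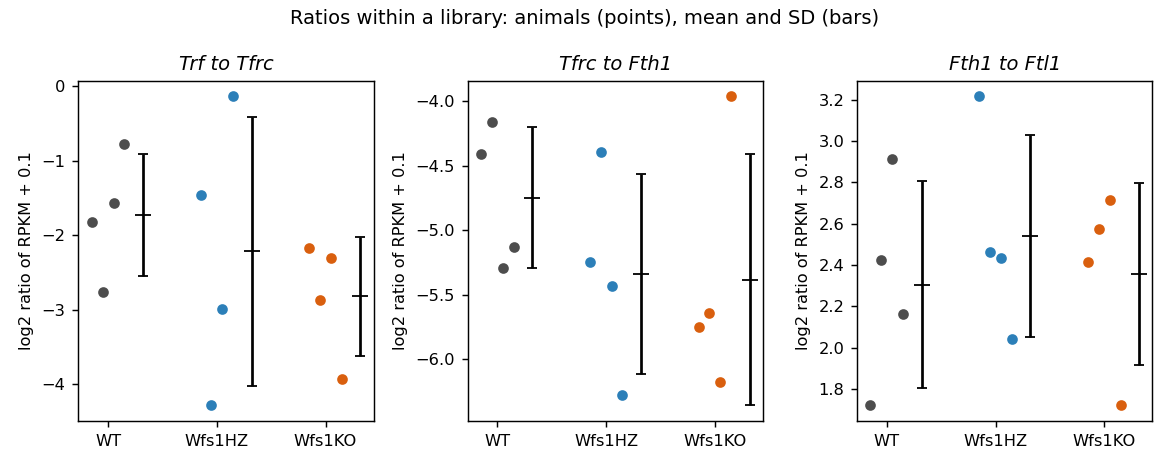
log2 ratios of Trf to Tfrc, Tfrc to Fth1 and Fth1 to Ftl1 (y axes) within each library, with a point for each animal and a bar for the mean and SD of 4 animals per genotype. Trf lies below Tfrc in all 12 libraries, and Tfrc to Fth1 is low in 3 Wfs1KO animals and highest of all in the fourth.

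In the 3 glucagon-rich libraries the exporter and the importer gene took extreme values. Slc40a1 had its 3 highest values there, 15.69 to 17.79 RPKM against 3.45 to 10.18 RPKM in the other 9, and Slc11a2 its 3 lowest, 17.83 to 22.54 RPKM against 23.39 to 51.43 RPKM. Among all transcripts tested 7.55% had their 3 highest and 0.88% their 3 lowest values there, against 1 of 9 each (11.1%) here. Of 67 further iron genes, 8 had their 3 highest values there (11.9%) and 3 their 3 lowest (4.48%). For the highest values these shares differ from that of all transcripts by few genes, and nothing particular to iron genes is read from them. Hmox1, the heme-degrading oxygenase that releases iron, was among the first group, with 296 to 400 RPKM against 73.3 to 177 RPKM. Hamp, which encodes hepcidin, was among the second, with 11.5 to 64.6 RPKM against 73.6 to 321 RPKM. With Hamp were Lcn2, which encodes a binder of iron-carrying siderophores, at 193 to 562 RPKM against 940 to 2861 RPKM, and Steap4, a further metalloreductase gene. The pattern was noticed in the data and has no test. The same libraries were also low in beta and acinar markers, and which cells gave these values was not tested.

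**Figure D4:**
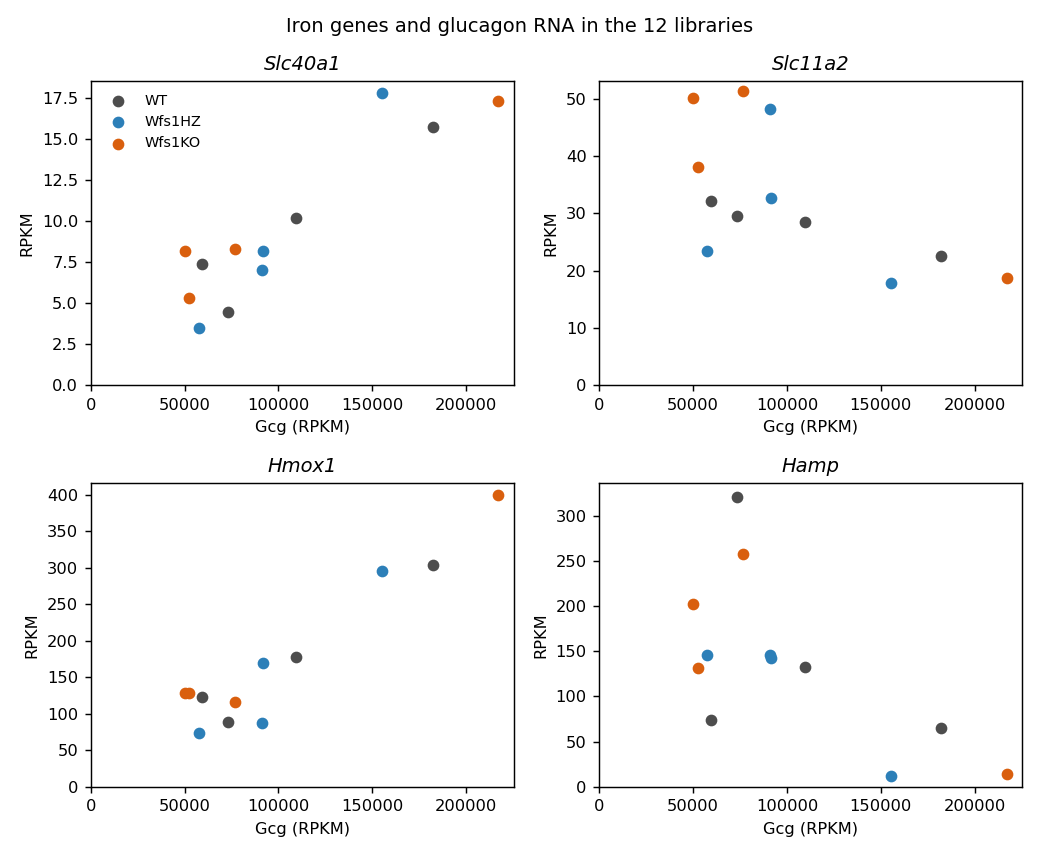
RPKM of Slc40a1, Slc11a2, Hmox1 and Hamp (y axes, from 0) against Gcg RPKM (x axes) in the 12 libraries, coloured by genotype. The 3 libraries with the most Gcg, 1 of each genotype, have the 3 highest Slc40a1 and Hmox1 and the 3 lowest Slc11a2 and Hamp values.

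The rest of the iron pathway was read from 67 genes in 7 lists. None had an adjusted p under 0.05 by limma in any comparison. For Wfs1KO against WT 34 were higher and 33 lower, with a median log2 difference of 0.04, and 4 had an unadjusted p under 0.05 (5.97%), all of them lower. Over all transcripts 5.64% had such a p in either direction and 1.74% in that direction, so the share in either direction was near the background. Among the 9 genes of the transferrin cycle, 4 were higher and 5 lower. Exoc6, an exocyst subunit gene needed for transferrin recycling in red cell precursors, was 1 of the 4, at -0.63 on the log2 scale (adjusted p = 0.876 from limma).

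Of the 6 other uptake genes, 2 were higher and 4 lower. Slc39a8, which encodes the metal importer ZIP8, had 4.37, 4.55, 5.70 and 8.08 RPKM in WT islets. In Wfs1KO islets it had 3.13, 2.57, 3.92 and 1.79 RPKM. All Wfs1KO animals lay below all WT animals, at a log2 difference of -0.98 (standard error 0.31). The limma adjusted p was 0.835, and Slc39a8 was the only 1 of the 67 without overlap, beside 0.991% of all transcripts in that direction. Lcn2 was the highest gene of this list, at a mean of 1429 RPKM.

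Of the 9 genes of export and its control, 5 were higher and 4 lower. Hamp was their highest, at 148 ± 119, 112 ± 66.7 and 151 ± 105 RPKM (SD, n = 4 each) in WT, Wfs1HZ and Wfs1KO islets. Of the 4 storage and chaperone genes 2 were higher and 2 lower, led in level by Pcbp2, an iron chaperone gene, at a mean of 87.6 RPKM. Both iron-sensing genes were higher by 0.10 to 0.34 on the log2 scale, a difference within the error. Fbxl5, which directs the breakdown of IRP2, was the higher in level at 19.2 RPKM.

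Of the 19 heme genes, 11 were higher and 8 lower. Uros, an enzyme of heme synthesis, had 2.26, 3.32, 5.66 and 1.72 RPKM in WT islets. The Wfs1KO animals had 1.09, 1.61, 0.34 and 2.00 RPKM. The log2 difference was -1.37 (adjusted p = 0.85 from limma), and Wfs1KO replicate 4 lay within the WT range. Alas2, the erythroid form of the first enzyme of the pathway, averaged 2.08 ± 1.09 RPKM in WT and, in Wfs1KO, 0.813 ± 0.388 RPKM (SD, 4 animals each). Its log2 difference was -1.19 (limma adjusted p = 0.879). The 9 entries of the erythroid marker list stand for 7 genes and include Alas2. They summed to 2.58 to 10.5 RPKM in WT islets and to between 0.62 and 2.20 RPKM in Wfs1KO islets. Of the 9 entries, 4 were at 0 in all Wfs1KO libraries and 2 in all WT libraries. The part of red cell RNA in the Alas2 values was not tested. Of the 18 genes of mitochondrial iron and iron-sulfur clusters 8 were higher and 10 lower, between -0.26 and 0.42, the narrowest range of the larger lists.

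**Figure D5:**
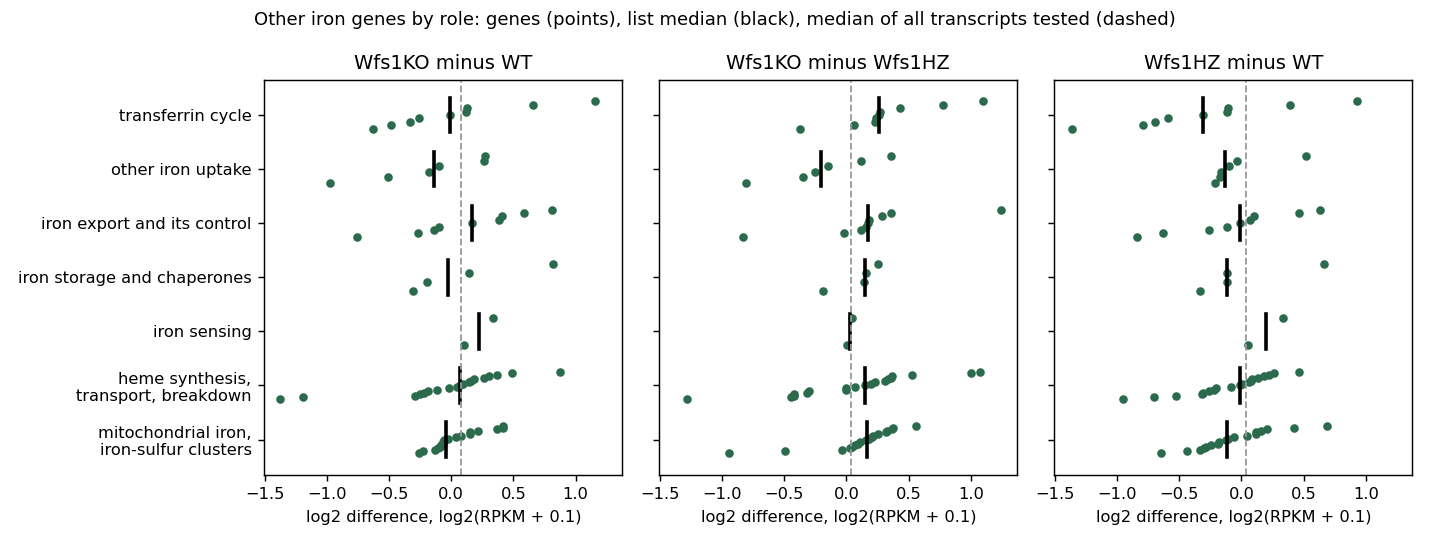
log2 differences of 67 other iron genes (points) in 7 lists by role (y axis) for the 3 comparisons (x axes, log2(RPKM + 0.1)), with the median of each list in black and the median of all transcripts tested dashed. Most lists lie around the dashed line for Wfs1KO minus WT, and the transferrin cycle list has its lowest values for Wfs1HZ minus WT at -1.36 and -0.79.

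In Wfs1HZ islets 26 of the 67 genes were higher and 41 lower than in WT, with a median of -0.11, beside 11540 of 21701 transcripts higher. Without Wfs1HZ replicate 4 the numbers were 42 higher and 25 lower, with a median of 0.09. Over all transcripts 15287 of 21701 were then higher, with a median of 0.25. Steap1 and Steap2, which encode proteins of the same family as STEAP3, were the only 2 of the 67 (2.99%) with an unadjusted p under 0.05, near the background of 2.35% in either direction and 1.27% in that direction. Steap1 had 13.71, 8.23, 5.61 and 9.72 RPKM in WT, 3.39, 1.86, 4.89 and 4.24 RPKM in Wfs1HZ and 9.47, 10.37, 7.61 and 3.97 RPKM in Wfs1KO islets. Steap2 had 14.61, 11.23, 11.01 and 12.83 RPKM, then 7.36, 8.10, 8.94 and 4.70 RPKM, and 14.32, 17.12, 11.91 and 7.62 RPKM in the same order of genotypes. In both genes all Wfs1HZ animals lay below all WT animals, as in 1.08% of all transcripts, and Wfs1KO animals overlapped both. The log2 differences were -1.36 for Steap1 (standard error 0.38) and -0.79 for Steap2 (standard error 0.25), and the limma adjusted p was 1 for both. Against Wfs1HZ, Wfs1KO islets had 1.10 more for Steap1 and 0.78 more for Steap2 on the log2 scale, with an unadjusted p under 0.05 (background 2.45% in either direction, 1.7% in that direction) and the same adjusted p. In that comparison 49 of the 67 genes were higher and 18 lower, beside 11600 of 21701 transcripts higher, and without Wfs1HZ replicate 4 the numbers were 31 and 36, beside 7309. These comparisons share the Wfs1HZ animals and are not separate evidence. Targets of the hypoxia-inducible factors, which include iron genes in many cells, were read beside them, and 10 of 11 were higher in Wfs1KO islets than in WT, with a median of 0.24, beside 0.07 and 12465 of 21701 higher over all transcripts, and none with an adjusted p under 0.05. Their sum was 402, 332, 398 and 215 RPKM in Wfs1KO replicates 1 to 4, against 249 to 325 RPKM in WT and 255 to 324 RPKM in Wfs1HZ. Wfs1KO replicate 4, a glucagon-rich library, thus had the lowest sum of all 12 libraries, and the other Wfs1KO animals lay above all WT and Wfs1HZ animals. The reason was not tested.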

How the data were processed

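The authors prepared cDNA from islet RNA (Ovation RNA-Seq System), sequenced it on a SOLiD instrument and mapped the reads to mm10 with LifeScope. They deposited RPKM values, 1 column per animal. The counting tool and gene annotation are not given in the sources used here. Because RPKM are not counts, genotypes were compared in pairs with limma (version 3.58.1, R version 4.3.3) on log2(RPKM + 0.1), with a variance trend. Benjamini-Hochberg adjustment covered the 21701 transcripts averaging 0.1 RPKM or more over 12 samples, which include all 9 genes and the 67 other iron genes. The pseudocount understates the change of low genes. An exact two-sided permutation test over animals was added for the 9 genes. Samples are separate animals, and p-values set the difference between genotypes against the spread between animals. In limma the spread of each transcript is drawn toward a trend fitted over all transcripts tested.

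Depth was estimated from RNA genes shorter than 200 nt and came out far below the read numbers that the study reports, for a reason that was not tested. If it holds, 3 reads on a 2 kb transcript equal 0.157 to 0.685 RPKM. Approximate reads use the longest coding transcript and cover counting error only. Coordinates and hairpins are from GENCODE M21. The genes and lists were chosen with earlier results of these data known. Named besides the 9 genes are Wfs1, other iron genes with an unadjusted p under 0.05 or the highest level of their list, and the transcripts most and least like Trf. The glucagon-rich libraries were singled out after values were seen. Alternatives were pseudocounts of 1 and 0.01, other filters, median-of-ratios and quantile scaling, other variance models, a single fit, sample weights, a replicate block, and leaving out animals. The fit was tested on simulated data. Python 3.11.15, numpy 2.4.6, pandas 2.3.3 and matplotlib 3.10.9 were used.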

Additional observations from a re-analysis of the deposited data

Results flagged for a closer look

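Among the 27 combinations of gene and genotype examined, 1 had an animal far from the others of its group. Fth1 in WT replicate 4 was 699.53 RPKM against 1112 to 1181 RPKM in the other 3 WT animals, a gap of 0.858 of the group's range, above Dixon's 95% limit. Chance gives about 1 such group in 20.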

How the results depend on the processing

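Trf in the Wfs1KO comparisons being left aside, the number of iron handling genes with an adjusted p under 0.05 was 0 in each comparison. This held under each of 20 alternatives, and the number was also 0 for the 67 other iron genes. Directions of small, uncalled differences did turn, and the cause was not tested. With sample weights Slc40a1 was -0.085 for Wfs1KO minus WT, Aco1 and Ireb2 0.26 and 0.011 for Wfs1KO minus Wfs1HZ, and Fth1 and Aco1 0.067 and -0.27 for Wfs1HZ minus WT. With quantile normalization Fth1 was -0.021 for Wfs1KO minus Wfs1HZ and 0.18 for Wfs1HZ minus WT. Without the glucagon-rich library of each genotype, chosen after seeing the data, Aco1 was 0.015 for Wfs1KO minus WT. In that setting Aco1 and Ireb2 were 0.15 and 0.14 for Wfs1KO minus Wfs1HZ, and Steap3, Fth1 and Aco1 were -0.54, 0.013 and -0.14 for Wfs1HZ minus WT. Of the 10 transcripts most like Trf, 6 stayed by Spearman's rho, 2 by deviations from genotype means and 1 without Wfs1HZ replicate 2.

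With each animal left out in turn, Wfs1KO minus WT ranged from -0.45 to 0.019 for Steap3, -0.0031 to 0.32 for Fth1, -0.0069 to 0.36 for Ftl1, -0.26 to 0.35 for Slc40a1 and -0.12 to 0.066 for Aco1. Wfs1KO minus Wfs1HZ ranged from -0.32 to 0.49 for Tfrc, -1.003 to 0.086 for Steap3, -0.18 to 0.60 for Slc40a1, -0.26 to 0.071 for Aco1 and -0.31 to 0.26 for Ireb2. Wfs1HZ minus WT ranged from -0.26 to 0.83 for Steap3, -0.23 to 0.25 for Slc11a2, -0.26 to 0.13 for Fth1, -0.54 to 0.24 for Slc40a1, -0.12 to 0.21 for Aco1 and -0.56 to 0.013 for Ireb2. Steap3 has no value at a minimum mean of 1 RPKM, which it does not reach.

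The count of other iron genes with an unadjusted p under 0.05 was 1 to 7 for Wfs1KO against WT, 1 to 6 for Wfs1KO against Wfs1HZ and 2 to 5 for Wfs1HZ against WT. The correlations between deviations of animals with the same replicate number were 0.06, -0.09, 0.04 and -0.13 for Wfs1KO and WT, 0.09, -0.1, 0.01 and -0.17 for Wfs1KO and Wfs1HZ, and 0.07, 0.23, -0.05 and 0.21 for Wfs1HZ and WT. Not every pair exceeded 0.1 in any comparison, so the numbers were not taken to pair the animals. With the replicate number as a block none of the 9 genes had an adjusted p under 0.05, Trf in the Wfs1KO comparisons being left aside. For Wfs1HZ minus WT 2 of the 9 (Trf and Tfrc) had an unadjusted p under 0.05 with the block. Over all transcripts the block moved the number with an unadjusted p under 0.05 from 511 to 854 for Wfs1HZ minus WT, from 1225 to 1091 for Wfs1KO minus WT and from 532 to 395 for Wfs1KO minus Wfs1HZ. If the inferred totals of reads hold, at the lowest depth, 2189500 reads, levels under 0.685 RPKM on a 2 kb transcript stand for fewer than 3 reads, which limits Steap3 most.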
